A study of Mus musculus with 8 samples.

Results

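Transcripts of 10 genes that are used as markers of neutrophils, the short-lived granulocytes that enter inflamed tissue and tumours from the blood, were followed through 8 mouse tumours: S100a8, S100a9, Csf3r, Cxcr2, Retnlg, G0s2, Il1r2, Trem1, Clec4d and Clec4e. The genes were taken by symbol from the 55450 genes of the deposited table, each symbol matched a single row, and all 10 passed the filter on low counts that left 16911 genes for testing. The tumours were grown in C57BL/6 mice from MOC1, a single mouse line of oral squamous cell carcinoma. The series design places them in the flank, while the tissue label of each sample names the oral tongue, and the files do not settle which site is meant. They were collected after 32 days of treatment. In the Smyd3 ASO arm 5 mice received antisense oligonucleotides (short synthetic strands that bind a chosen transcript) against Smyd3, a lysine methyltransferase, with the checkpoint antibody anti-PD-1. In the control ASO arm 3 mice received control oligonucleotides with the same antibody, so that no tumour was without anti-PD-1. Of the Smyd3 ASO tumours, 2 were labelled responders (numbered 1 and 3), 2 non-responders (unnumbered in the labels and called 1 and 2 here), and 1, numbered 2, carried no response mark. Response was an outcome within the Smyd3 ASO arm and was not assigned. The age of the mice, and the cells the oligonucleotides reached, are not given in the sources used here. Each library was made from polyA RNA of a whole tumour piece, so fewer cells of a type and less RNA per cell cannot be told apart.

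Neutrophils leave the bone marrow under granulocyte colony-stimulating factor, which acts through the receptor Csf3r, and are drawn into tissue by chemokines of the CXC family that bind Cxcr2. In the cytoplasm of mature cells S100A8 and S100A9 form the abundant calcium-binding complex calprotectin, whereas the granule proteases are transcribed earlier, in marrow precursors. In squamous carcinoma S100a8 and S100a9 can also be transcribed by keratinocytes, and several of the other genes are shared with monocytes, macrophages or fat cells, so none of the 10 belongs to neutrophils alone.

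Libraries held 22103853 to 27258700.1 expected counts, with 1.94% to 2.58% in mitochondrial genes. Values below are CPM (counts scaled to library size) after TMM scaling, and folds are log2 values from edgeR's quasi-likelihood test with Benjamini-Hochberg adjustment (FDR) over all tested genes. Smyd3 itself was lower in the Smyd3 ASO tumours, at 8.68 and 4.38 CPM in responders 1 and 3, 4.58 in the tumour without a mark and 9.26 and 4.88 in non-responders 1 and 2, against 10.7, 11.9 and 10.6 CPM in controls 1 to 3. The arms did not overlap, and an exact two-sided permutation test gave p = 0.0357, the smallest value that 5 tumours against 3 allow. In edgeR the log2 difference was −0.80 (95% interval −1.46 to −0.14, FDR 0.246). No batch is given in the labels.

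The upstream regions of 5 of the genes are shown because Csf3r and Cxcr2, Trem1 beside them, and S100a8 and S100a9 had the tightest relations across the tumours. The sequences are RefSeq's for GRCm38.p6, read 5′ to 3′ on the gene's strand in the 250 bases before the RefSeq start and limited to the bases outside exons annotated in GENCODE M21. Capitals mark TTNNGNAA, a core of sites for C/EBP factors, and AGGAAG, a core of sites for PU.1, on either strand; both factors act in myeloid cells. The motifs do not overlap each other in the printed stretches.
Csf3r, chr4:126024409-126024549, plus strand: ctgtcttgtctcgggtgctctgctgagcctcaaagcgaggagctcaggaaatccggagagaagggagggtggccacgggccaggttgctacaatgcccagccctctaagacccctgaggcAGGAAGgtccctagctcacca
Cxcr2, chr1:74153744-74153988, plus strand: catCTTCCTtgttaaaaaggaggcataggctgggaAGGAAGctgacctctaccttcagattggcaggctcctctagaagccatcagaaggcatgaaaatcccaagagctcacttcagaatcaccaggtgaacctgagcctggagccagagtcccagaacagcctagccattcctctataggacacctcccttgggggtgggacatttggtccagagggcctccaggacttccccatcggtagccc
Trem1, chr17:48232489-48232738, plus strand: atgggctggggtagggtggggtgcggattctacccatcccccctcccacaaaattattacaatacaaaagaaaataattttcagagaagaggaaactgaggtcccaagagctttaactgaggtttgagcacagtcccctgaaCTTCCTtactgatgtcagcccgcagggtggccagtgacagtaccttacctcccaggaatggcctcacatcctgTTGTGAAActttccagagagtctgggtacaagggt
S100a8, chr3:90668821-90668977, plus strand: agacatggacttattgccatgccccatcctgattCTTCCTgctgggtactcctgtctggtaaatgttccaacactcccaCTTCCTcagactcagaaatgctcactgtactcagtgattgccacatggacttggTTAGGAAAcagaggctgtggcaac
S100a9, chr3:90695722-90695971, minus strand: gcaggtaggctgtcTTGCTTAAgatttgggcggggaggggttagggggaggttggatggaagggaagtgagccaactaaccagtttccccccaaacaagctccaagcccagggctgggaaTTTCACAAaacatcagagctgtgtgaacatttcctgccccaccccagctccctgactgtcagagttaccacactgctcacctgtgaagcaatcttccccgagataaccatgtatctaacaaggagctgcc
In the full 250-base windows, TTNNGNAA was found in 6 of the 10 members (Clec4d, Clec4e, Retnlg, S100a8, S100a9 and Trem1), against 36.8% of 32851 mouse promoters. AGGAAG was found in 6 of 10 (Clec4d, Csf3r, Cxcr2, G0s2, S100a8 and Trem1), against 29.5% of promoters. These are matches of letters, and in part of the windows the letters lie within annotated exons. S100a8 and S100a9 lie 22597 bases apart on chromosome 3 and point towards each other, and Clec4d and Clec4e lie 6524 bases apart on chromosome 6, also towards each other.

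Scaled to exon length, S100a9 was the most abundant of the 10, with a mean level over the 8 tumours of 117 CPM per kb, followed by S100a8 at 60.7 CPM per kb. The receptors Csf3r and Il1r2 had 18.9 and 9.26 CPM per kb, Clec4d 6.46, Cxcr2 5.84 and Retnlg 3.96. Trem1, Clec4e and G0s2 were the least abundant, at 2.36, 2.04 and 1.59 CPM per kb. The highest tumour exceeded the lowest 2.04-fold for Il1r2 and 4.37-fold for G0s2, with the other members between.

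**Figure D1:**
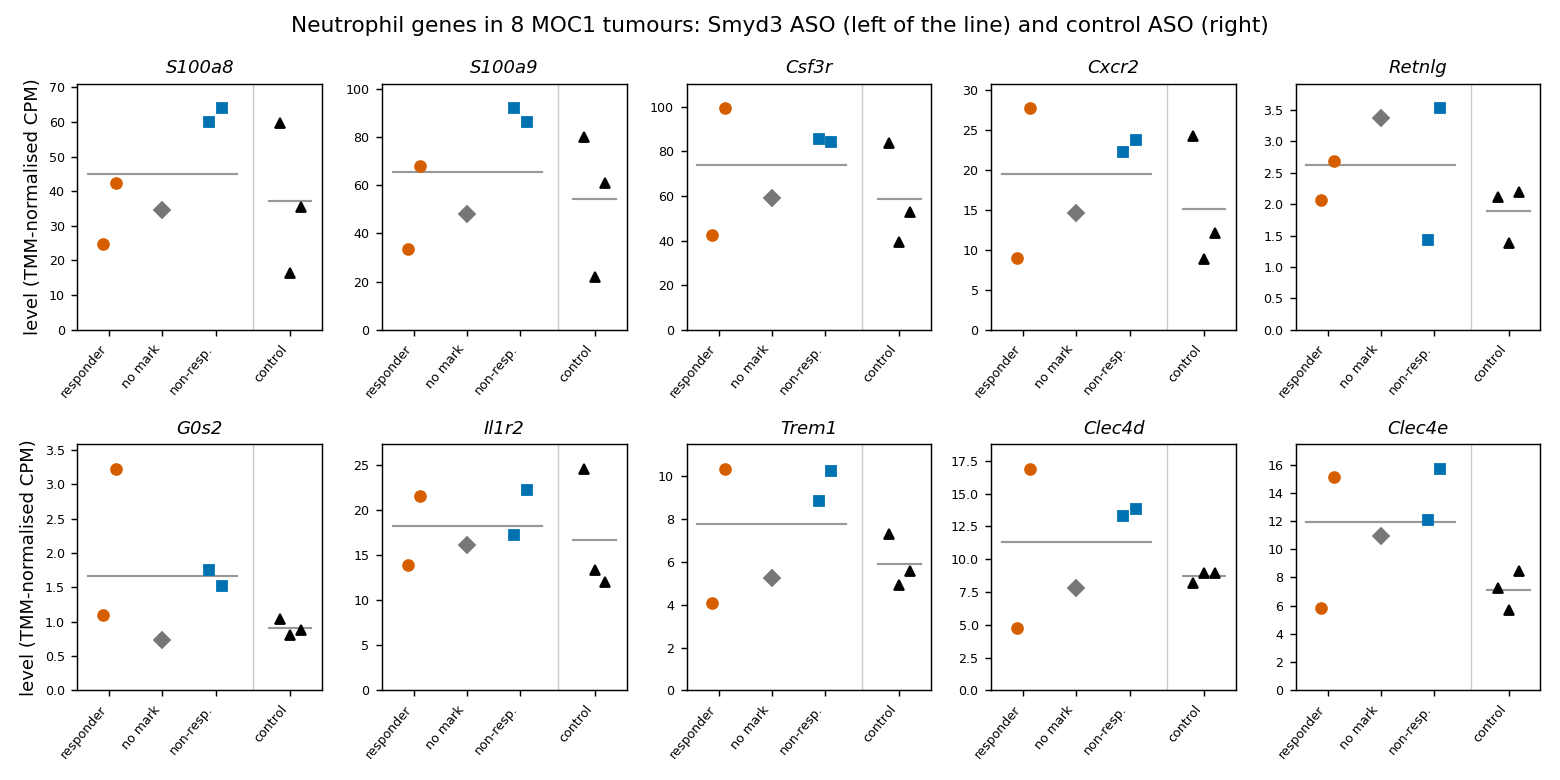
Level of each of the 10 genes (TMM-normalised CPM, linear axes from 0) in every tumour, Smyd3 ASO left of control ASO, with points for tumours and lines at the arm means. The 2 arms overlap for all 10 genes, and control 2 and responder 1 lie among the 3 lowest tumours for 9 of 10.

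The same few tumours were often the highest or the lowest. Responder 3 had the highest level of 5 members, non-responder 2 of 3, and non-responder 1 and control 1 of 1 each. Control 2 had the lowest level of 6 members and responder 1 of 2, and both were among the 3 lowest for 9 of 10. Summed, the 10 genes took 147 and 311 CPM, unscaled, in responders 1 and 3, 198 in the tumour without a mark and 306 and 338 in non-responders 1 and 2, against 288, 117 and 202 in controls 1 to 3. High and low tumours occurred in both arms, and 1 responder was high and the other low.

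Treatment with the Smyd3 ASO was set against the control ASO first. No member was called at FDR 0.05 by edgeR, as no gene of the 16911 was (0% called; 2629 genes, 15.5%, had an unadjusted p under 0.05). DESeq2 called 1053 genes and limma voom 0, no member in either. Clec4e was the only member with an unadjusted p under 0.05, 1 of 10 against that 15.5%. Every member had a log2 difference above 0, as did 51.8% of all genes, with a median of 0.37 over the members and 0.01 over all genes. No member had arms without overlap, against 10.6% of all genes. Most members go up and down together over the tumours, so their common sign is not 10 separate observations.

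The chemokine and cytokine receptors come first. Csf3r had 42.4 and 99.3 CPM in responders 1 and 3, 59.1 in the tumour without a mark and 85.5 and 84.1 in non-responders 1 and 2, against 83.8, 39.2 and 52.8 CPM in controls 1 to 3. It averaged 74.1 ± 22.9 CPM in Smyd3 ASO tumours and 58.6 ± 22.9 CPM in controls (SD, n = 5 and 3), a log2 difference of 0.34 (95% interval −0.38 to 1.06, FDR 0.662). Cxcr2, the receptor for CXC chemokines, had 8.92 and 27.7 CPM in responders 1 and 3, 14.6 in the tumour without a mark and 22.2 and 23.8 in non-responders 1 and 2, against 24.3, 8.87 and 12.1 CPM in controls 1 to 3. Its lowest tumours, responder 1 and control 2, lay on both sides, and its log2 difference was 0.36 (−0.59 to 1.32, FDR 0.733). Il1r2, the decoy receptor that binds interleukin-1 without signalling, had 13.9 and 21.6 CPM in responders 1 and 3, 16.1 in the tumour without a mark and 17.3 and 22.3 in non-responders 1 and 2, against 24.6, 13.3 and 12.1 CPM in controls 1 to 3. It had the smallest difference of the 10, 0.13 (−0.46 to 0.72, FDR 0.855), and control 1 was its highest tumour.

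S100a8 had 24.7 and 42.2 CPM in responders 1 and 3, 34.5 in the tumour without a mark and 59.9 and 64.0 in non-responders 1 and 2, against 59.6, 16.5 and 35.4 CPM in controls 1 to 3. Its partner S100a9 had 33.5 and 68.0 CPM in responders 1 and 3, 47.9 in the tumour without a mark and 92.0 and 86.3 in non-responders 1 and 2, against 79.9, 21.7 and 61.0 CPM in controls 1 to 3. In both genes the 2 non-responders and control 1 were the 3 highest tumours and control 2 the lowest. The arms averaged 45.1 ± 16.7 and 37.2 ± 21.6 CPM for S100a8 (Smyd3 ASO and control, SD, n = 5 and 3), a log2 difference of 0.28 (−0.70 to 1.26, FDR 0.806). For S100a9 it was 0.27 (−0.74 to 1.29, FDR 0.817). Without control 2 the differences were −0.061 for S100a8 and −0.089 for S100a9.

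Clec4d and Clec4e encode paired C-type lectin receptors of myeloid cells, of which Clec4e (Mincle) senses glycolipids and products of dying cells. Clec4e had 5.84 and 15.1 CPM in responders 1 and 3, 10.9 in the tumour without a mark and 12.1 and 15.7 in non-responders 1 and 2, against 7.27, 5.71 and 8.46 CPM in controls 1 to 3. Of the 5 Smyd3 ASO tumours, all but responder 1 lay above every control. The means were 11.9 ± 3.95 CPM in Smyd3 ASO tumours and 7.15 ± 1.38 CPM in controls, a log2 difference of 0.74 (0.03 to 1.45, unadjusted p = 0.0431, FDR 0.303). Clec4d had 4.75 and 16.9 CPM in responders 1 and 3, 7.80 in the tumour without a mark and 13.3 and 13.9 in non-responders 1 and 2, against 8.19, 8.96 and 8.92 CPM in controls 1 to 3. Its controls lay close together within the range of the Smyd3 ASO tumours (log2 difference 0.38, −0.46 to 1.22, FDR 0.676). Trem1, an amplifying receptor of neutrophils and monocytes, had 4.10 and 10.3 CPM in responders 1 and 3, 5.24 in the tumour without a mark and 8.84 and 10.2 in non-responders 1 and 2, against 7.27, 4.90 and 5.55 CPM in controls 1 to 3 (log2 difference 0.39, −0.38 to 1.16, FDR 0.632).

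Retnlg and G0s2 were the members with the fewest reads. Retnlg, a resistin-like secreted protein, had 2.07 and 2.68 CPM in responders 1 and 3, 3.38 in the tumour without a mark and 1.43 and 3.53 in non-responders 1 and 2, against 2.12, 1.38 and 2.19 CPM in controls 1 to 3. The 2 non-responders were at opposite ends of the Smyd3 ASO range (log2 difference of the arms 0.46, −0.35 to 1.27, FDR 0.578). G0s2, an inhibitor of the triglyceride lipase Pnpla2 that is expressed in neutrophils and in fat, had 1.10 and 3.22 CPM in responders 1 and 3, 0.74 in the tumour without a mark and 1.75 and 1.52 in non-responders 1 and 2, against 1.04, 0.80 and 0.88 CPM in controls 1 to 3. All marked Smyd3 ASO tumours were above every control and the tumour without a mark was below them all. The log2 difference was 0.87 (−0.21 to 1.96, FDR 0.421), the largest of the 10. Beside it, markers of fat cells were higher in the same arm: 9 of 9 tested adipocyte genes had a difference above 0, and their sum was 44.5 to 363 CPM in Smyd3 ASO tumours and 36.4 to 65.9 CPM in controls. Responder 3 was the highest tumour for each of these genes, with 17.2 CPM of Adipoq against 1.14 CPM or less in the other Smyd3 ASO tumours. Plin4, Cfd and Cidec were above every control in all Smyd3 ASO tumours. The part of fat cells in the G0s2 value was not tested.

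**Figure D2:**
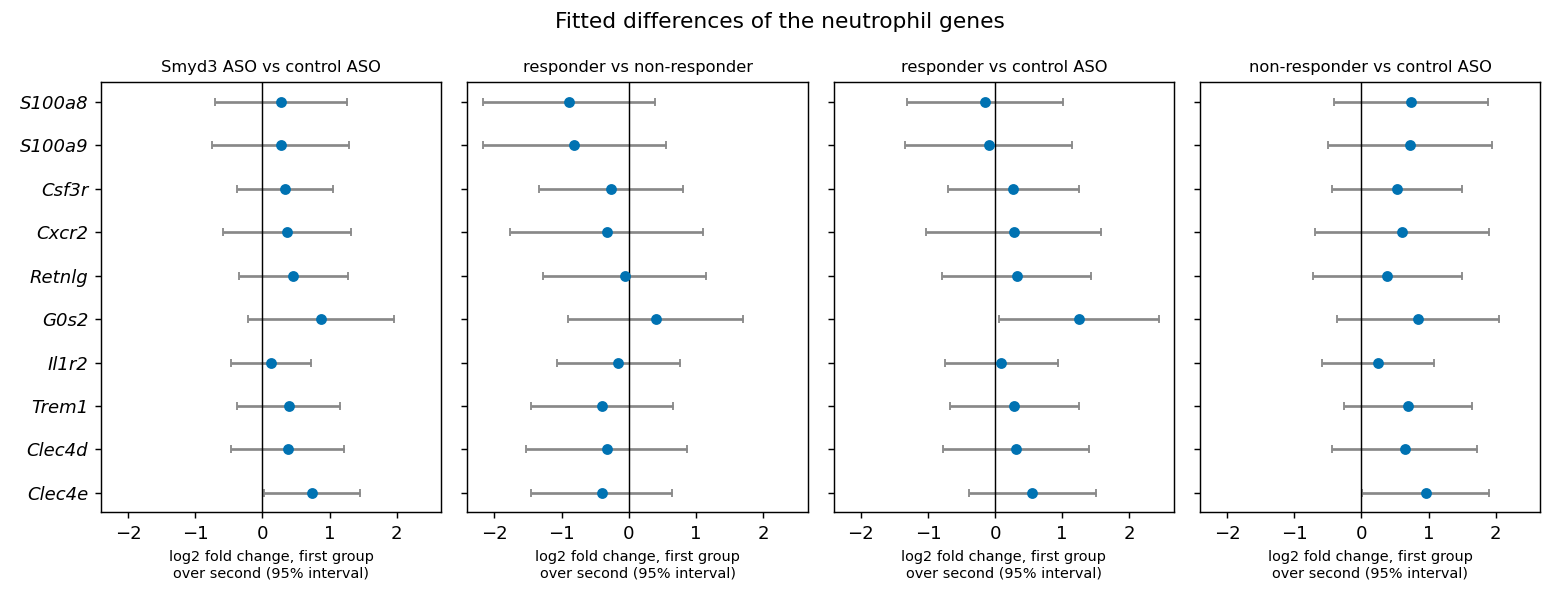
Log2 difference of each gene in the 4 comparisons, with 95% intervals from edgeR's quasi-likelihood fit. Intervals include 0 for all members except Clec4e in Smyd3 ASO against control ASO and in non-responder against control, and G0s2 in responder against control, none of which passed the FDR threshold.

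Responders were next set against non-responders, 2 tumours each, in which an exact permutation test cannot go below p = 0.333. No gene was called by edgeR (0%; 1436 genes, 8.49%, had an unadjusted p under 0.05, with no member among them), while DESeq2 called 225 genes and limma voom 0, no member in either. In all, 9 of 10 members had a log2 difference below 0, with a median of −0.33 (0.01 over all genes, of which 51.6% were above 0). S100a8 averaged 33.5 ± 12.4 CPM in responders, against 61.9 ± 2.84 CPM in non-responders (SD, n = 2 each), a log2 difference of −0.89 (−2.16 to 0.39, FDR 0.669). S100a9 averaged 50.8 ± 24.5 CPM in responders, against 89.2 ± 4.0 CPM in non-responders, a difference of −0.81 (−2.17 to 0.55, FDR 0.708). In these 2 members both responders lay below both non-responders, as was the case for 18.9% of all genes. The other 8 overlapped: responder 3 lay within or above the range of the non-responders in each, and responder 1 lay below both non-responders in all of them but Retnlg. Without responder 1, Csf3r, Cxcr2, Retnlg, Il1r2, Trem1, Clec4d and Clec4e turned to values above 0, of 0.12 (Trem1 and Retnlg) to 0.32 (Clec4d).

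Markers of keratinocyte differentiation were lower in responders in the same direction as S100a8 and S100a9. Of the 20 genes, all tested, 19 had a log2 difference below 0 with a median of −1.48, 8 had an unadjusted p under 0.05 and none passed at FDR 0.05. Other lists also lay to 1 side in this comparison, with no gene called. All 14 basal keratinocyte genes were below 0 (median −0.64, 7 with an unadjusted p under 0.05). Above 0 were all 14 skeletal muscle genes (median 3.05), all 9 tested adipocyte genes (4.04), 13 of 14 macrophage genes (0.61), all 20 interferon gamma response genes (0.63), all 8 regulatory T cell genes (0.66) and 6 of 9 tested eosinophil, basophil and mast cell genes (0.78). Responder 3 was the highest tumour for each of the tested adipocyte genes. Tgm3, a transglutaminase of the cornified layer, had 1.91 and 1.16 CPM in responders, against 196 and 45.5 CPM in non-responders (−6.30, FDR 0.365). Krt13, a keratin of suprabasal oral epithelium, had 32.0 and 30.6 CPM in responders, against 90.1 and 78.6 CPM in non-responders (−1.43, FDR 0.505). The summed list spanned 5779 to 17830 CPM in Smyd3 ASO tumours and 4813 to 9631 CPM in controls. Over the 8 tumours the list's mean log2 level went with S100a8 at Pearson r = 0.846 and Spearman rho = 0.833 (permutation p = 0.00878 and 0.0154) and with S100a9 at r = 0.821 and rho = 0.857 (permutation p = 0.0104 and 0.0107). Without control 2 and non-responder 1, the farthest on the list's scale, r was 0.793 and 0.653. None of the 60 relations of members with marker lists passed adjustment (adjusted p = 0.312 for both). Csf3r, Cxcr2 and Il1r2 had an r of 0.613, 0.591 and 0.426 with that list. S100a8 also went with Csf3r and Cxcr2, at r = 0.889 and 0.886, and S100a9 at 0.891 and 0.875. Each of these pairs had an adjusted permutation p of 0.0172 for r over the 45 member pairs. For rho the adjusted permutation p was 0.0692 or more. The part of keratinocytes in the S100a8 and S100a9 values was not tested.

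Each marked group was also set against the controls, which the 2 comparisons share. In responders against controls 280 genes passed (1.66%; 16.6% had an unadjusted p under 0.05), no member among them. Of the members 8 of 10 were above 0, with a median of 0.28, as were 50.4% of all genes. G0s2 averaged 2.16 ± 1.51 CPM in responders and 0.91 ± 0.12 CPM in controls (n = 2 and 3), a log2 difference of 1.25 (0.06 to 2.44, unadjusted p = 0.0421, FDR 0.279). It was the only member with both responders above all controls, against 18.8% of all genes. Responder 1 lay only just above control 1, at 1.10 against 1.04 CPM (27 and 25 reads). In non-responders against controls no gene passed by edgeR (0%; 1562 genes, 9.24%, had an unadjusted p under 0.05), while DESeq2 called 339 genes and limma voom 0, no member in either. All 10 members were above 0, with a median of 0.67, as were 51.1% of all genes. Clec4e averaged 13.9 ± 2.55 CPM in non-responders and 7.15 ± 1.38 CPM in controls, a difference of 0.96 (0.01 to 1.90, unadjusted p = 0.0480, FDR 0.536). Both non-responders lay above all controls in 7 of 10 members (S100a8, S100a9, Csf3r, G0s2, Trem1, Clec4d and Clec4e), against 12.2% of all genes. The margin was small in 2 of them: the lower non-responder had 59.9 CPM of S100a8 and 84.1 CPM of Csf3r, against 59.6 and 83.8 CPM in control 1. Over the 8 tumours the levels of these 7 genes are correlated, with rho of 0.524 (S100a9 and Clec4d) or more in each pair, so they are not 7 separate observations.

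Across the 8 tumours most members went up and down together. All 45 pairs had a Pearson r above 0 on log2 CPM, with a median of 0.738. For Pearson r, 15 pairs had an adjusted permutation p under 0.05 over the 45. By Spearman rho only S100a8 with S100a9 did (adjusted permutation p = 0.0179), and Csf3r with Trem1 came next (0.0502). Without the 2 tumours farthest on the first gene of a pair, Pearson r was above 0 in 41 of 45. The 4 that turned were Retnlg with S100a8 (−0.43), S100a9 (−0.48), Csf3r (−0.14) and Cxcr2 (−0.066). Csf3r and Cxcr2 were the closest pair, with r = 0.995 and rho = 0.905 (permutation p = 0.000248 and 0.00456, adjusted 0.00558 and 0.0685) and r = 0.991 without control 2 and responder 1. S100a8 and S100a9 had r = 0.981 and rho = 0.976 (permutation p = 7.44e-05 and 0.000397, adjusted 0.00335 and 0.0179) and r = 0.960 without control 2 and non-responder 2. Trem1 followed Csf3r and Cxcr2, both at r = 0.931. Within an arm there are fewer than 6 tumours, so no relation was computed there.

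**Figure D3:**
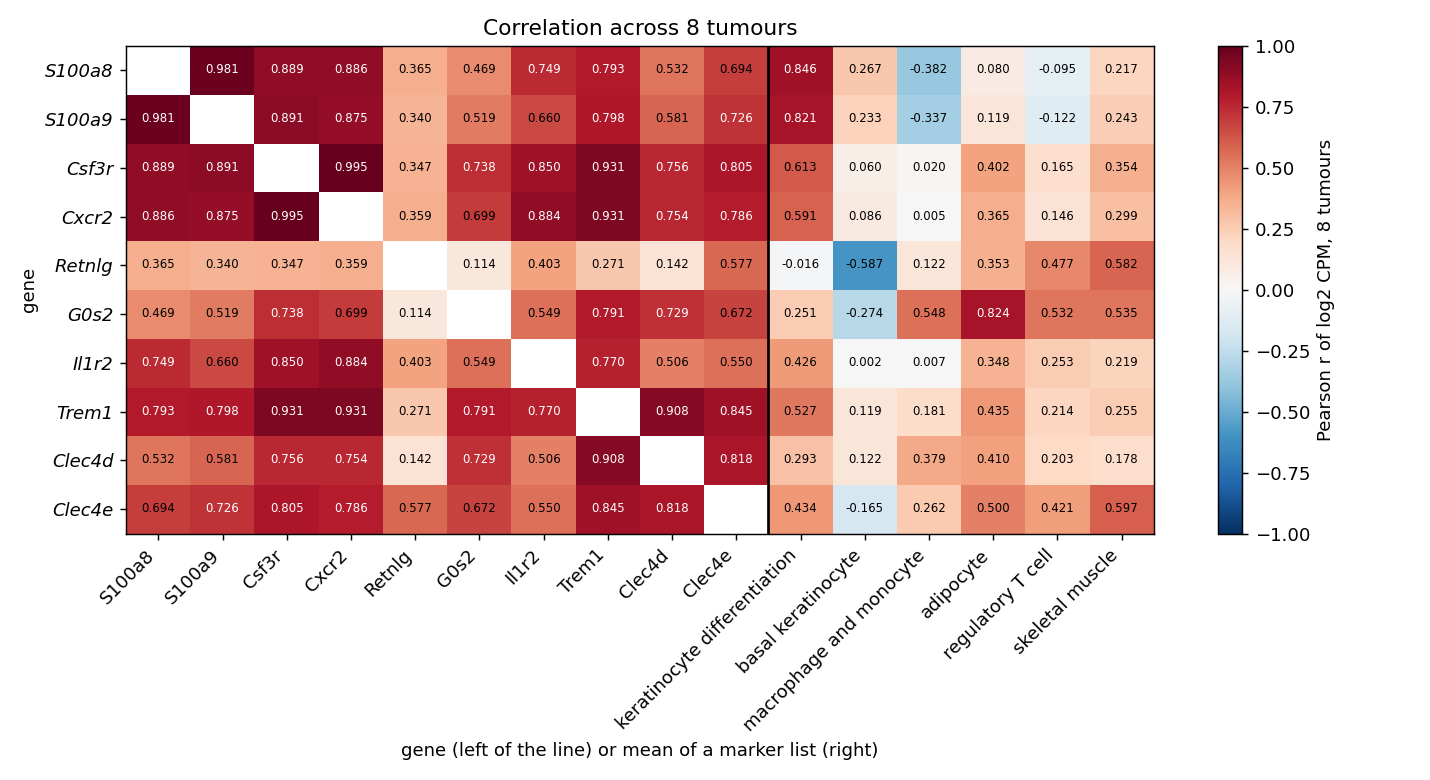
Pearson r of log2 CPM over 8 tumours between each pair of the 10 genes (left of the line) and between each gene and the mean of 6 marker lists (right), on a colour scale with the value printed in each cell. Gene pairs are all above 0, the highest between Csf3r and Cxcr2 and the lowest, 0.114, between Retnlg and G0s2, while the lists give values on both sides of 0.

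Retnlg was the member least like the rest, with r between 0.114 (G0s2) and 0.577 (Clec4e) and adjusted p of 0.206 or more in its 9 pairs. G0s2 had r = 0.469 with S100a8, 0.519 with S100a9 and 0.549 with Il1r2, and 0.672 to 0.791 with Clec4e, Cxcr2, Clec4d, Csf3r and Trem1. Without these 2 genes the 28 pairs left had a median r of 0.802. With the list of macrophage and monocyte genes, r was −0.38 for S100a8, −0.34 for S100a9, 0.020 for Csf3r, 0.0046 for Cxcr2, 0.0066 for Il1r2, 0.12 for Retnlg, 0.18 for Trem1, 0.26 for Clec4e, 0.38 for Clec4d and 0.55 for G0s2. Without control 1 and responder 3 all 10 were below 0. G0s2 had r = 0.824 and rho = 0.690 with the adipocyte list (permutation p = 0.0196 and 0.0694, adjusted 0.391 and 0.988) and r = 0.570 without responders 1 and 3.

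**Figure D4:**
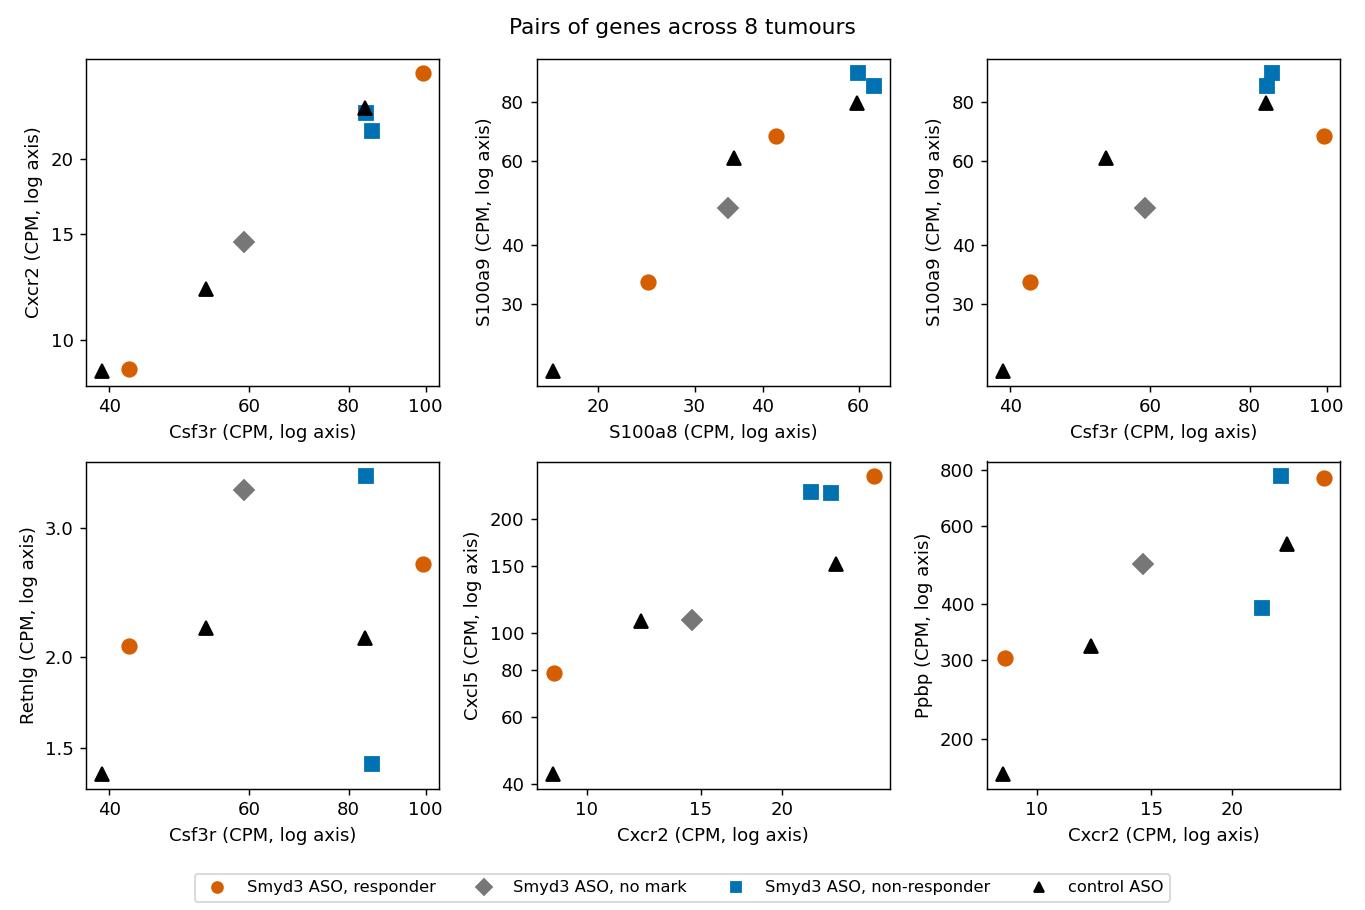
Pairs of genes over 8 tumours (CPM, log axes), 1 point per tumour, coloured by arm and response mark. Cxcr2 follows Csf3r and S100a9 follows S100a8 in tumours of both arms, Retnlg does not follow Csf3r closely, and Cxcl5 and Ppbp rank high where Cxcr2 does.

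Ratios within a tumour take out what the members share. The S100a8 to S100a9 ratio lay between 0.581 and 0.761 in all 8 tumours, with an SD of 0.15 on the log2 scale, against 0.69 for S100a8 itself. The Cxcr2 to Csf3r ratio lay between 0.212 and 0.290 (SD 0.17 on the log2 scale, against 0.67 for Cxcr2). Arm means of the 9 ratios differed by −0.43 (Clec4d to Clec4e) to 0.32 (G0s2 to Csf3r) on the log2 scale, and no exact permutation p passed (lowest 0.143, all 0.964 after adjustment over the 9). Relative to Csf3r, S100a8 was lower in both responders, at 0.498, than in both non-responders, at 0.730 (folds of the mean log2 ratios). S100a9 to Csf3r was likewise 0.736 in responders and 1.05 in non-responders. G0s2 to Csf3r was higher in both responders, at 0.0304, than in both non-responders, at 0.0202. Responders and non-responders overlapped in the other ratios: S100a8 to S100a9, Clec4d to Clec4e, and Cxcr2, Retnlg, Trem1 and Il1r2 to Csf3r. With 2 tumours a side a full separation has an exact two-sided permutation p of 0.333. The differences in the separated ratios therefore had no test that could pass.

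Granule and maturation genes were used to check the label. Ly6g, the surface antigen used to sort mouse neutrophils, had 1 to 10 reads per library (0.04 to 0.46 CPM) and did not pass the filter. Mpo, Elane, Ctsg, Camp and Cebpe, genes of granule proteins or their regulation in marrow precursors, did not pass it either, and Elane was at 0 reads in 5 of 8 libraries. Other genes of granule proteins passed. Ltf had 42.3 CPM in control 2, its lowest tumour, and 944 CPM in control 3, its highest. Prtn3 had 0.09 to 0.50 CPM, Ngp 0.23 to 1.74 CPM and Mmp8 1.44 to 3.79 CPM, while Lcn2 had 8.56 to 248 CPM and Mmp9 38.2 to 186 CPM. Which cells carried the Ltf transcript was not tested, so its level cannot be read as that of neutrophils. Of the 26 genes in the list, 20 were tested and none was called by edgeR in any of the 4 comparisons. In Smyd3 ASO against control ASO, 15 were above 0 (median 0.39) and 1 had an unadjusted p under 0.05. Fpr2, a receptor for formylated peptides, had 4.62 and 11.1 CPM in responders 1 and 3, 4.23 in the tumour without a mark and 5.30 and 8.45 in non-responders 1 and 2, against 3.28, 3.79 and 2.61 CPM in controls 1 to 3. It was higher in every Smyd3 ASO tumour than in every control (log2 difference 1.06, unadjusted p = 0.0182, FDR 0.227). Padi4, the enzyme that citrullinates histones in neutrophil traps, had a difference of −0.89 (FDR 0.346). It did not follow the members: it was lowest in responder 3 (14.2 CPM), the highest tumour for 5 members, and highest in control 1 (87.3 CPM).

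Between responders and non-responders 15 of the 20 tested granule genes had a log2 difference above 0, with a median of 0.43, whereas 9 of 10 members were below 0, with a median of −0.33. Of these genes, 3 had an unadjusted p under 0.05. Lcn2, a siderophore-binding protein that epithelia also make, had 176 and 248 CPM in responders, against 19.2 and 28.7 CPM in non-responders (log2 difference 3.15, FDR 0.521), the reverse order of S100a8. Mmp9, gelatinase B, lay in the direction of most members, with 46.1 and 38.2 CPM in responders, against 186 and 93.7 CPM in non-responders (−1.73, FDR 0.492). Ngp, a granule protein, had 1.74 and 0.54 CPM in responders, against 0.23 and 0.30 CPM in non-responders (2.07, FDR 0.544). None of the 3 passed the FDR threshold.

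Ligands that recruit neutrophils or drive their production were measured next. Of 14, 11 were tested, and Csf2, Il17a and Il17f did not pass the filter; edgeR called none in any comparison. In Smyd3 ASO against control ASO, 8 of 11 were above 0 (median 0.66) and 2 had an unadjusted p under 0.05. Tnf, a cytokine of activated macrophages, had 14.8 and 16.3 CPM in responders 1 and 3, 18.5 in the tumour without a mark and 12.3 and 13.1 in non-responders 1 and 2, against 9.39, 9.05 and 9.26 CPM in controls 1 to 3. It was higher in all 5 Smyd3 ASO tumours than in all 3 controls (log2 difference 0.70, unadjusted p = 0.00195, FDR 0.106). Il1b, interleukin-1 beta, which Il1r2 binds, averaged 58.5 ± 20.9 CPM in Smyd3 ASO tumours and 31.6 ± 3.14 CPM in controls (0.89, FDR 0.209), and Il6 had a difference of 0.81 (FDR 0.394). In responders against non-responders 8 of 11 were below 0 (median −0.47), among them the Cxcr2 ligands Cxcl1 (−1.16, FDR 0.578) and Cxcl2 (−1.11, FDR 0.572), and Il1a (−1.02, FDR 0.537).

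Among these ligands Cxcl5 and Ppbp, which also bind Cxcr2, had the levels that followed Cxcr2 most closely; they are named after their values were seen, and so was the relation. Cxcl5 had 78.6 and 259 CPM in responders 1 and 3, 109 in the tumour without a mark and 235 and 234 in non-responders 1 and 2, against 152, 42.5 and 108 CPM in controls 1 to 3. It went with Cxcr2 at r = 0.926 and rho = 0.905 (permutation p = 0.000843 and 0.00456, adjusted over 11 ligands 0.00928 and 0.0251) and at r = 0.905 without control 2 and responder 3. Ppbp, the platelet and epithelial chemokine CXCL7, had 303 and 767 CPM in responders 1 and 3, 493 in the tumour without a mark and 393 and 774 in non-responders 1 and 2, against 545, 167 and 323 CPM in controls 1 to 3. It went with Cxcr2 at r = 0.865 and rho = 0.905 (permutation p = 0.00459 and 0.00456, adjusted 0.0252 and 0.0251), with r = 0.828 without control 2 and non-responder 2. Csf3, the ligand of Csf3r, was low at 1.16 to 2.79 CPM and went with Cxcr2 at r = 0.721 and rho = 0.881 (permutation p = 0.0287 and 0.00724, adjusted 0.0788 and 0.0266). Its rank correlation passed adjustment and its Pearson r did not, and r was 0.400 without control 2 and responder 3. Cxcl3 went with Cxcr2 at r = 0.822 and rho = 0.810 (adjusted permutation p = 0.0612 and 0.0599), with r = 0.776 without control 1 and responder 1. Cxcl1 had r = 0.498 and rho = 0.738 with Cxcr2 (adjusted permutation p = 0.270 and 0.101), but r = 0.969 without control 3 and non-responder 1.

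**Figure D5:**
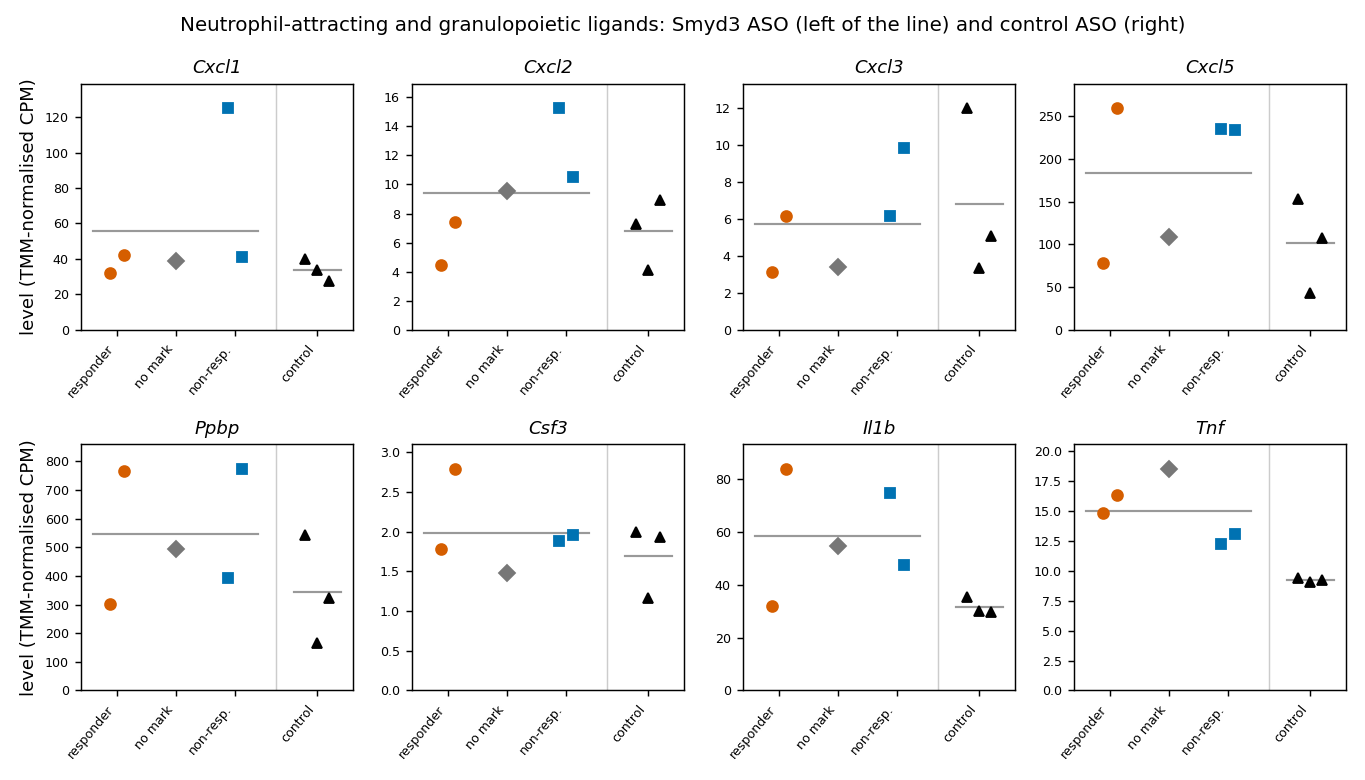
Levels (TMM-normalised CPM, linear axes from 0) of 8 ligands in every tumour, Smyd3 ASO left of the line and control ASO right of it, with lines at the arm means. Tnf alone of the 8 separates the arms completely, at 12.3 to 18.5 CPM in Smyd3 ASO tumours and 9.05 to 9.39 CPM in controls.

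Genes that act with the members, such as adaptors, co-receptors and inhibitors, gave few differences. Of 18, 17 were tested (Cxcr1 was not), edgeR called none in any comparison, and 12 were above 0 in Smyd3 ASO against control ASO (median 0.15), 1 of them with an unadjusted p under 0.05. Il1rn, the interleukin-1 receptor antagonist, averaged 293 ± 64.4 CPM in Smyd3 ASO tumours and 143 ± 79.3 CPM in controls (log2 difference 1.04, FDR 0.219), with control 1 at 229 CPM inside the Smyd3 ASO range. Cd36, a lipid scavenger receptor, had a difference of 1.17 (FDR 0.434), and Socs3, the inhibitor of signalling from Csf3r, one of −0.20 (FDR 0.369). Between responders and non-responders Cd36 (1.70, FDR 0.572), Fcer1g, the signalling chain of Clec4e (0.64, FDR 0.596), and Syk, the kinase downstream of it (0.50, FDR 0.692), were above 0.

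Finally the 13611 genes whose log2 CPM averaged 0 or more and whose symbol was not a predicted-gene name were ranked by Pearson r over the 8 tumours with the mean of the z-scored log2 CPM of Csf3r, Cxcr2, Trem1, Clec4d, Clec4e, Il1r2 and Retnlg. The 10 genes most like that mean outside the members were Numb, Cd300lf, Trem3, Aagab, Tex2, Usp38, Trim30b, Pik3r3, Add2 and Sema4d, with r from 0.951 to 0.930. Pearson r takes no account of the size of a change: Numb, the first, spanned only 52.5 to 62.4 CPM, whereas Add2 spanned 5.64 to 24.3 CPM. Cd300lf had 25.3 and 57.6 CPM in responders 1 and 3, 29.7 in the tumour without a mark and 34.0 and 48.7 in non-responders 1 and 2, against 35.7, 24.2 and 29.3 CPM in controls 1 to 3. Trem3, a neighbour in family of Trem1, had 0.65 and 2.54 CPM in responders 1 and 3, 0.82 in the tumour without a mark and 1.66 and 1.87 in non-responders 1 and 2, against 1.50, 0.40 and 0.67 CPM in controls 1 to 3. Among the fixed lists Cxcl5 (0.921), Ppbp (0.911), Hdc (0.905), the enzyme that makes histamine, and Stfa2l1 (0.883), a stefin, had the highest r, and Socs3 the lowest (−0.85). Medians of r were 0.67 over 10 ligands, 0.44 over 8 adipocyte genes, 0.43 over 17 granule genes, 0.41 over 14 skeletal muscle genes, 0.40 over 6 eosinophil, basophil and mast cell genes and 0.39 over 20 keratinocyte differentiation genes. They were 0.37 over 17 partners of the members, 0.33 over 20 interferon gamma response genes, 0.13 over 6 regulatory T cell genes, 0.10 over 14 macrophage genes and −0.01 over 14 basal keratinocyte genes, against 0.05 over all ranked genes. The granule genes thus had about the same median as lists of fat, muscle and keratinocyte genes. These r describe 8 tumours and are given without a test.

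Other cell types and responses that differed beside the members are given as measured. All 14 skeletal muscle genes had a difference above 0 in Smyd3 ASO against control ASO (median 5.92, all with an unadjusted p under 0.05, none called; summed level 724 to 12197 CPM in Smyd3 ASO tumours and 47.5 to 114 CPM in controls), and so did all 20 interferon gamma response genes (median 1.43, likewise; summed level 4361 to 10016 CPM in Smyd3 ASO tumours and 2557 to 3213 CPM in controls). Medians were 1.29 over 8 regulatory T cell genes, 1.06 over 9 tested eosinophil, basophil and mast cell genes, 0.60 over 20 keratinocyte differentiation genes, 0.12 over 14 macrophage genes and −0.29 over 14 basal keratinocyte genes, with no gene called. Their part in the members' values was not tested.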

How the data were processed

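Bulk polyA RNA-seq libraries (TruSeq Stranded mRNA kit, per the labels' protocols) of 8 tumours were analysed. The authors deposited RSEM expected counts per gene, not scaled to library size; RSEM 1.3.0, STAR 2.7.0f, cutadapt 1.18, bcl2fastq 2.17 and the build mm10 appear in the submitters' processing notes, with no order or settings. All 55450 identifiers were found in GENCODE M21, which gave gene coordinates and exon lengths, while symbols came from the deposited table. RSEM splits reads shared between genes (2929 to 3179 values per library were not whole, tolerance 1e-06), so genes with near-identical copies are uncertain.

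Counts were rounded, and genes with 0.424 CPM (10 reads in the median library) in 2 or more libraries and 15 reads in all were kept. TMM factors were 0.9638 to 1.04. edgeR 4.0.16 in R 4.3.3 ran robust two-sided quasi-likelihood tests (FDR threshold 0.05). Smyd3 ASO against control ASO had treatment as its only term; the other 3 contrasts came from a 4-group model over all 8 libraries. Log2 CPM for correlations and ratios used a prior count of 2. Permutation tests (scipy 1.17.1) enumerated 56 splits of the arms or 40320 pairings.

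Members and lists were chosen with earlier results of these data known. Named are the members, Smyd3, genes among the 3 with the smallest p per list in the treatment and the responder against non-responder comparisons, and the 10 most similar genes; any other gene was chosen after its values were seen. A gene withheld for evaluation is not reported here. Alternatives were DESeq2 1.42.0 (size factors and test), limma 3.58.1 voom, no filter, leaving out libraries and a replicate block. The steps were tested on simulated data.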

Additional observations from a re-analysis of the deposited data

How the results depend on the processing

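No alternative called a member at FDR 0.05: 15 were run for Smyd3 ASO against control ASO, 8 for responder against non-responder, and 9 each for responder and for non-responder against control. Counts of genes called over the whole table did move. Smyd3 ASO against control ASO gave 52 genes with no filter on low counts, 1053 with DESeq2, 25 with the mean of responders and non-responders in the 4-group model and 0 to 258 when a library was left out (258 without non-responder 1, 5 without control 1), against 0. The replicate block on the 6 numbered libraries gave 245 and the same libraries without the pairing 286; tumours with the same number in the 2 arms did not deviate together (r = −0.034, 0.0003 and 0.076), so the numbers were not taken to pair them. Responder against non-responder gave 7 with no filter, 225 with DESeq2 and 0 to 21 when a library was left out (21 without responder 1), against 0. Responder against control gave 499 with no filter, 1153 with DESeq2, 135 with limma voom and 0 to 276 when a library was left out (0 without control 1, 6 without control 3, 33 without responder 3 and 107 without control 2), against 280. Non-responder against control gave 33 with no filter and 339 with DESeq2, against 0. The cause of these shifts was not tested.

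Of the members' log2 differences, 6 of 150, 11 of 80, 13 of 90 and 1 of 90 turned sign under an alternative in the 4 comparisons, in the order above. With limma voom Retnlg was 0.061 in responder against non-responder and S100a9 0.013 in responder against control. In Smyd3 ASO against control ASO, Clec4d was −0.020 with the replicate block, and S100a8 and S100a9 were −0.14 and −0.12 in the 6 numbered libraries without the pairing. Leaving out a library gave ranges across 0 as follows. In Smyd3 ASO against control ASO they were −0.061 to 0.79 for S100a8, −0.089 to 0.66 for S100a9 and −0.069 to 0.52 for Il1r2. In responder against non-responder they were −0.999 to 0.23 for Csf3r, −1.36 to 0.28 for Cxcr2, −0.57 to 0.72 for Retnlg, −0.58 to 0.98 for G0s2, −0.51 to 0.14 for Il1r2, −1.22 to 0.12 for Trem1, −1.51 to 0.32 for Clec4d and −1.25 to 0.13 for Clec4e. In responder against control they were −0.60 to 0.37 for S100a8, −0.71 to 0.32 for S100a9, −0.48 to 0.75 for Csf3r, −0.77 to 0.87 for Cxcr2, −0.27 to 0.48 for Il1r2, −0.54 to 0.80 for Trem1, −0.88 to 0.95 for Clec4d and −0.30 to 1.08 for Clec4e. In non-responder against control it was −0.41 to 0.89 for Retnlg.

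Of the 60 relations of members with marker lists, 52 were above 0 over 8 tumours and 36 without the 2 farthest. With the macrophage list r was then −0.58 for Csf3r, −0.51 for Cxcr2, −0.34 for G0s2, −0.36 for Trem1, −0.27 for Clec4d and −0.51 for Clec4e, and with the regulatory T cell list −0.37 for Csf3r, −0.40 for Cxcr2 and −0.38 for Il1r2. Leaving out a library, added after seeing the data, turned the sign of 6 of the 9 log2 ratio differences. With 2 to 5 tumours a group, the 95% intervals of most members reach past 1 log2 unit on at least 1 side.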
